A study of Homo sapiens with 4 samples.

Results

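Cytosolic ribosomal protein genes were examined in LNCaP-derived prostate cancer cells before and after methyl-CpG targeted transcriptional activation (MeTA), a method in which a transcriptional activation domain is carried to methylated DNA. Members were genes whose symbol is RPL or RPS followed by a number with at most a letter A or X, together with RPLP0, RPLP1, RPLP2 and RPSA. Names ending in L, RPS6K kinases, Y-linked copies and pseudogenes were left out. This rule gave 77 genes of the 19483 genes that the probes could be paired with, 46 of the large subunit and 31 of the small subunit, and it used no measured value except that the brightest probe stood for each gene. With tetracycline all 77 had a lower scaled signal in TR9-MeTA14, against 52.9% of all genes compared. Their median lay 2.56-fold below the untreated array, and the direction held for at least 73 of them under every scaling tried. In TR15-MeTA5 all 77 were also lower, by a median of 1.37-fold, against 64.1% of all genes compared. That direction was lost when the arrays were scaled by spike-in probes or quantiles.

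Both lines come from LNCaP, an androgen-responsive human prostate cancer line, and were grown in RPMI1640 medium with fetal bovine serum. TR9 and TR15 are LNCaP cells stably transfected with the pcDNA6/TR plasmid, which encodes the Tet repressor. Each then received pcDNA4/TO carrying NFκB (AD)-MBD, the activation domain of NFκB joined to a methyl-CpG binding domain, under a tetracycline-regulated promoter. The 4 groups were TR9-MeTA14 -Tet, TR9-MeTA14 +Tet, TR15-MeTA5 -Tet and TR15-MeTA5 +Tet, where +Tet is 4 days of tetracycline, and each was measured on 1 Agilent 1-colour array. All groups therefore carried the Tet repressor and the construct, and each line is 1 transfected derivative. LNCaP or TR cells lacking the construct but given tetracycline were not analysed here, so that an effect of tetracycline itself cannot be told apart from that of the induced protein. With 1 array per condition there is no replicate, and no p-value is given within a line. The spread between cultures is unknown, and changes are described by their size.

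Cytosolic ribosomal proteins assemble with ribosomal RNA into the large and small ribosomal subunits, and their mRNAs are among the most abundant of a growing cell. Most begin with a 5′ terminal oligopyrimidine (TOP) tract, a cytosine at the cap followed by an uninterrupted run of pyrimidines, through which their translation follows growth signals such as mTOR. The same tract is known in mRNAs of elongation factors and of the poly(A)-binding protein. Some free ribosomal proteins, among them RPL5 and RPL11, can bind MDM2, the ubiquitin ligase of p53. Their many processed pseudogenes are close copies, and a probe can read transcripts of a copy together with those of the gene. Each value below is that of a probe and may include such copies, and how much they contributed was not tested.

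RefSeq gave start-site sequences on GRCh38.p14 for 62 of the 77 genes, with 77 annotated starts because 10 genes had several. Each line below shows the 10 bases before an annotated start and the first 20 bases from it, on the gene's own strand. Capitals mark a run that begins with C and continues with at least 4 more C or T letters and that starts at most 3 bases from the annotated start. The first 4 were among the members with the lowest +Tet signal relative to -Tet, the next 3 are a stalk protein and 2 widely used reference or signalling genes, and the last 3 are a member with a small change and 2 members without such a run.
RPL22, chr1:6199576-6199605, minus strand: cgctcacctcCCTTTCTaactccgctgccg
RPSA, chr3:39406710-39406739, plus strand: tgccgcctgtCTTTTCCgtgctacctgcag
RPS12, chr6:132814559-132814588, plus strand: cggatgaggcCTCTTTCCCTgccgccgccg
RPS23, chr5:82278335-82278364, minus strand: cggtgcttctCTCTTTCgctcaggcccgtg
RPLP0, chr12:120201092-120201121, minus strand: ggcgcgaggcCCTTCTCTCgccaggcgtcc
RPS6, chr9:19380217-19380246, minus strand: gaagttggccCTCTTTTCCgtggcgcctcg
RPL13A, chr19:49487598-49487627, plus strand: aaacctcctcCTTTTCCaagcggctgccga
RPL36, chr19:5690285-5690314, plus strand: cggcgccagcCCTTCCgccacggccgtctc
RPL4, chr15:66504836-66504865, minus strand: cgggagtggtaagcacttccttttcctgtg
RPS15, chr19:1438386-1438415, plus strand: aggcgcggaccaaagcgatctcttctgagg

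A run placed in this way was found at 53 of the 77 member starts (68.8%), against 13.0% of all 35116 annotated starts in the table. Only the strand of the gene was searched, and no other motif was. For a run lying anywhere within 20 bases of either side of the start, the shares were 92.2% and 47.9%. The 3-base tolerance was chosen after the sequences had been seen, since annotated starts differ by a few bases. RPL4 and RPS15 have no run at the annotated position, and both have pyrimidine stretches a few bases further on, as the lines above show. In TR9-MeTA14 the median log2 change was -1.34 in the 52 genes with a run at any start, -1.45 in the 10 genes without and -1.35 in the 15 genes not in the table. Genes counted as without a run can hold pyrimidines further on, as RPL4 and RPS15 do. The split follows the annotated position, so it cannot show whether a TOP tract goes with the size of the change.

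Signals are given on a log2 scale after subtracting the 75th percentile of the array, so that a level of 8 lies 8 doublings above that percentile. Of 34127 non-control probes per array, between 20560 and 24217 were well above background by the scanner software's flag, and no spot was saturated. The percentile lay at a processed signal of 617 and 777 in TR9-MeTA14 and of 367 and 542 in TR15-MeTA5, without and with tetracycline. Of 150 member probes, 148 were well above background on all 4 arrays, and so were all 77 probes that stand for a gene. Replicate spots within an array gave an SD of 0.0883 for a log2 ratio. This is technical error alone, and precision is limited above all by the small number of arrays. The labelled cell type could be checked, since all 10 luminal prostate and LNCaP markers listed, KLK3 and KLK2 among them, were well above background on every array. Of 8 basal, stromal, immune and endothelial markers, 2 or 3 were well above background per array, with KRT5, KRT14, TP63, COL1A2 and DCN on none. COL1A1 and PTPRC were so on all 4 arrays and PECAM1 on both +Tet arrays. Processed signals of COL1A1 were 475 and 505 in TR9-MeTA14 and 36.4 and 97.6 in TR15-MeTA5, without and with tetracycline. Those of PTPRC were 97.2 and 145, and 109 and 105, in the same order.

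**Figure D1:**
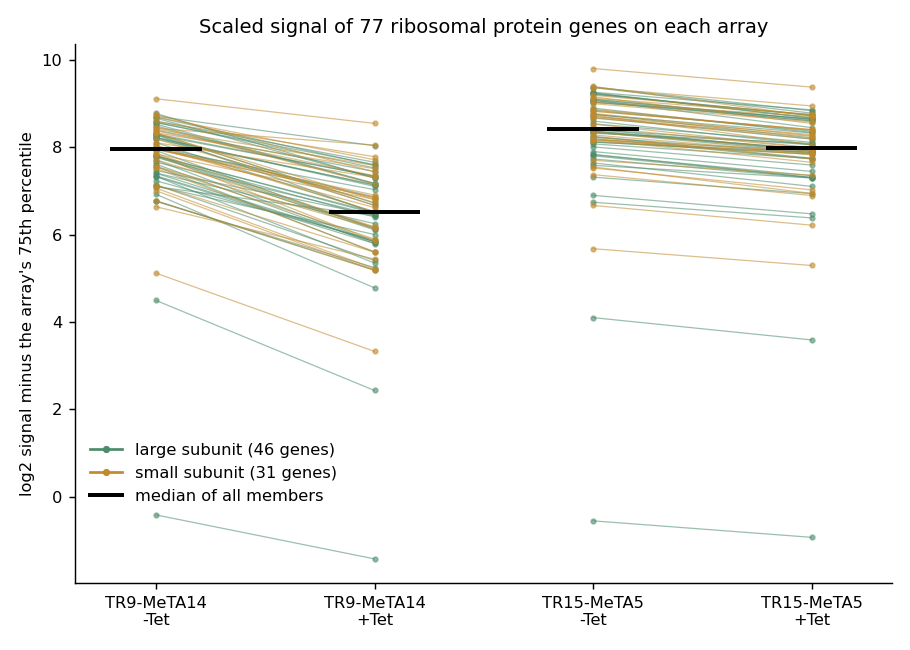
Scaled log2 signal (y axis, log2 of the processed signal minus the 75th percentile of the array) of the 77 ribosomal protein genes on the 4 arrays (x axis), with a line joining the -Tet and +Tet value of each gene and a black bar at the median of all members. The medians are 7.95 and 6.52 in TR9-MeTA14 and 8.41 and 7.98 in TR15-MeTA5, without and with tetracycline, and the step in TR15-MeTA5 disappears with spike-in or quantile scaling.

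TR9-MeTA14 +Tet was compared with TR9-MeTA14 -Tet to ask how the ribosomal protein genes stood after 4 days of MeTA. The median log2 change was -1.36, with a range from -2.14 to -0.38 and an SD of 0.385 over the genes. A total of 62 of 77 genes were at least 2-fold lower and none was higher. Among all 15075 genes compared, 15.1% were lower by 2-fold or more and 16.8% were higher by as much, and the median log2 change was -0.06. Lower by any amount were 52.9% of all genes. Of the other 14998 genes, 8.85% lay below the member median. Of the members, 21 (27.3%) were at least 3-fold lower, against 6.67% of all genes. Only 2 (2.60%) were at least 4-fold lower, a share under the 3.73% of all genes. With quantile normalization the member median was -0.62, with 25 genes at least 2-fold lower, and 73 of 77 were still lower, the exceptions being RPL13, RPL36, RPS15 and RPS26.

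The members also stood among the brightest probes of the array, and the comparison with all genes does not match them on signal. A set of 96 other genes, whose mean level lay at or above the 10th percentile of the members and which was added after the data had been seen, had a median log2 change of -0.33 in TR9-MeTA14, and 13.5% of them lay below the member median. In TR15-MeTA5 this set had a median of -0.37, against -0.45 for the members, and 33.3% of it lay below the member median. Lower by any amount were 78 of the 96 in TR9-MeTA14 and 92 in TR15-MeTA5, against all 77 members in both lines. Other bright genes thus had a shift of similar size in TR15-MeTA5, and the part of signal strength in the member values was not tested.

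**Figure D2:**
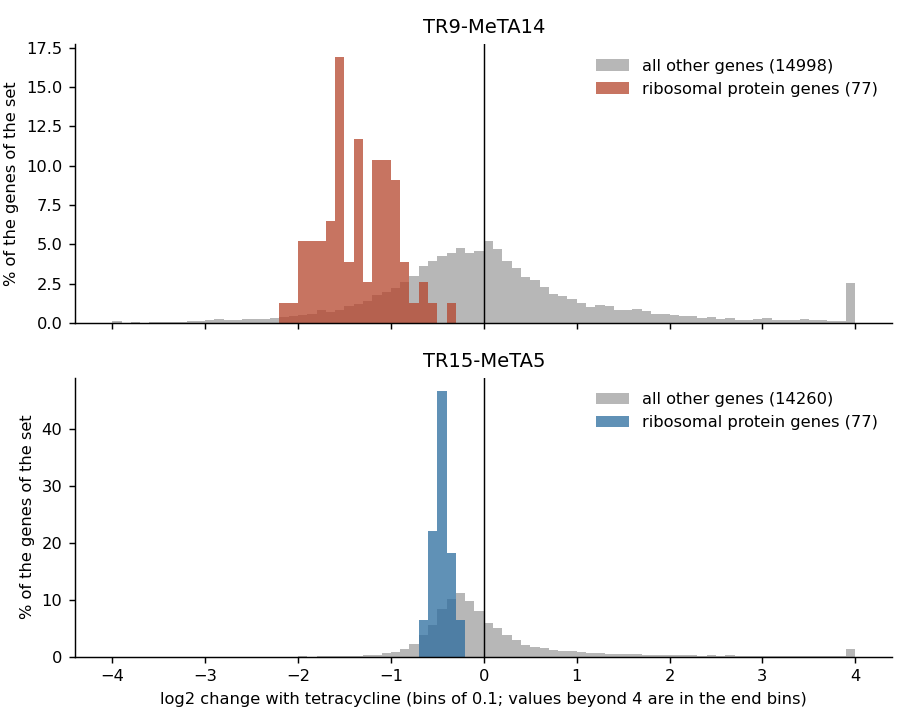
Share of genes (y axis, % of each set) by log2 change with tetracycline (x axis, bins of 0.1) for the 77 ribosomal protein genes (coloured) and all other genes (grey) in each line, scaled by the 75th percentile. In TR9-MeTA14 the members lie between -2.14 and -0.38 and in TR15-MeTA5 between -0.68 and -0.23, the latter direction being lost with spike-in or quantile scaling.

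The largest differences in TR9-MeTA14 were those of RPL7 and RPL22. RPL7 is a large subunit protein. Its log2 level was 6.92 in TR9-MeTA14 -Tet, 4.78 in TR9-MeTA14 +Tet, 6.90 in TR15-MeTA5 -Tet and 6.47 in TR15-MeTA5 +Tet. The lowest of the 4 was that of TR9-MeTA14 +Tet, 4.42-fold below its untreated array, whereas the levels of TR15-MeTA5 lay 1.34-fold apart. RPL22, a large subunit protein that is dispensable for translation in many cells and is recurrently mutated in cancers, had levels of 4.49 and 2.43 in TR9-MeTA14 and of 4.10 and 3.59 in TR15-MeTA5. It was 4.17-fold and 1.42-fold lower with tetracycline, respectively. The processed signals behind these levels were 13873, 4183, 6275 and 6513 in the same order. Before scaling, RPL22 was thus lower with tetracycline in TR9-MeTA14 and slightly higher in TR15-MeTA5.

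RPSA, the laminin receptor precursor that also serves as a small subunit protein, had the lowest mean log2 change over both lines of all 77 members, -1.32. Its levels were 7.82 and 5.85 in TR9-MeTA14 and 8.73 and 8.06 in TR15-MeTA5, a 3.91-fold and a 1.60-fold difference. The processed signals were 139517, 44901, 156073 and 144402, so that RPSA was among the 8 members that were lower in TR15-MeTA5 even without scaling. All 4 probes of RPSA were lower in both lines. RPL4, a large subunit protein lining the peptide exit tunnel, had levels of 7.56 and 5.59 in TR9-MeTA14 and of 7.64 and 7.10 in TR15-MeTA5. RPS12, a small subunit protein, stood at 7.0 and 5.18 in TR9-MeTA14 and at 7.55 and 6.94 in TR15-MeTA5. In both genes the TR9-MeTA14 +Tet array held the lowest value and the untreated arrays lay within a log2 unit of each other.

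After RPL7, the lines differed by the largest amounts in RPS3A and RPL26. RPS3A had log2 changes of -1.91 in TR9-MeTA14 and -0.31 in TR15-MeTA5, and RPL26, which binds the p53 mRNA, had -1.87 and -0.28. RPL14 changed by -1.82 and -0.50 and RPS23, which sits at the decoding centre, by -1.85 and -0.50. Across the 77 genes, the changes in both lines were hardly related, with a Pearson r of 0.07 and a Spearman rho of 0.10. This is a description over genes that share arrays and are not independent replicates. The changes in TR15-MeTA5 had an SD of 0.093 over the genes, close to the 0.0883 that replicate spots gave for a log2 ratio. With so narrow a spread, the correlation cannot show whether the genes responded alike in both lines.

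At the other end, 15 genes were less than 2-fold lower in TR9-MeTA14. RPS15, a small subunit protein, was the only member whose difference was not larger in TR9-MeTA14, with a log2 change of -0.38 against -0.45 in TR15-MeTA5. Its levels were 8.43, 8.05, 9.19 and 8.74 on the 4 arrays, in the order given above. With quantile normalization its change in TR9-MeTA14 was 0.33, higher with tetracycline. RPS2 changed by -0.56 and -0.43, RPL13 by -0.68 and -0.40, and RPL36 by -0.67 and -0.42. RPS28 changed by -0.82 and -0.33 and RPL31 by -0.93 and -0.23. Other probes of RPL13 and RPS2 gave larger differences. The other probe of RPL13, with processed signals of 47494 and 19003 in place of 257872 and 203229, had a log2 change of -1.65 in TR9-MeTA14. The other probes of RPS2 had -1.36 and -1.48.

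**Figure D3:**
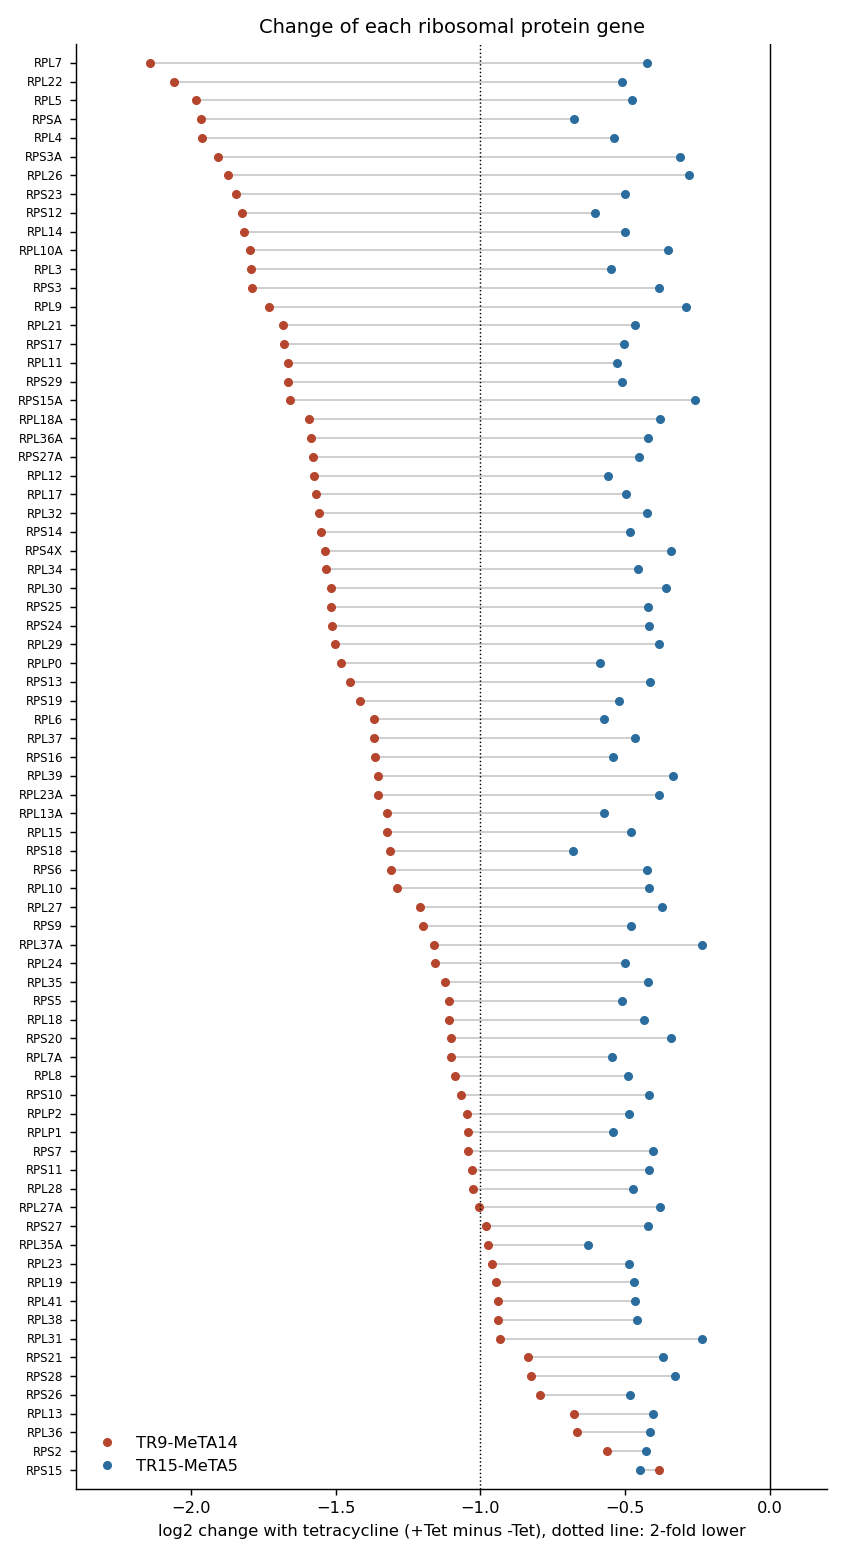
Log2 change with tetracycline (x axis) of each of 76 ribosomal protein genes (y axis, ordered by the change in TR9-MeTA14) in TR9-MeTA14 and TR15-MeTA5, scaled by the 75th percentile, with a dotted line at 2-fold lower. The TR9-MeTA14 value is the lower of the pair in 75 of these genes, RPS15 being the exception, and no TR15-MeTA5 value reaches 2-fold, their direction being lost with spike-in or quantile scaling.

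The other probes of the members were examined as well. Each of the 148 member probes that every array measured well above background was lower in TR9-MeTA14, 129 of them at least 2-fold, with a median log2 change of -1.51. Of the other 2 probes, one of RPL28 was above background on no array. The other, a probe of RPL10 above background on 2 arrays, went the other way, with dim processed signals of 25.9 and 85.8 in TR9-MeTA14 and of 13.0 and 29.3 in TR15-MeTA5. In 29 of 39 genes with several measured probes, the brightest probe had a smaller decrease in TR9-MeTA14 than the mean of the others, by a median of 0.18 over these 29 genes and of 0.11 over all 39. In TR15-MeTA5 the brightest probe had the smaller decrease in 17 of 39. The mean level of the 77 probes and their log2 change in TR9-MeTA14 had a Pearson r of 0.34 and a Spearman rho of 0.62, the brighter probes having the smaller decreases. In TR15-MeTA5 these were -0.16 and -0.21. The probes share the arrays and their background, and the correlations describe these probes only. RPL27A was measured by a single dim probe, with processed signals of 462, 289, 250 and 284, and its log2 changes were -1.01 and -0.38.

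By subunit, the 46 large subunit genes had a median log2 change of -1.35 in TR9-MeTA14, 38 of them at least 2-fold lower, and the 31 small subunit genes one of -1.36, with 24 at least 2-fold lower. Among all genes compared, 15.1% were lower by as much. After quantile normalization both medians were -0.62, with 16 and 9 genes at least 2-fold lower. In TR15-MeTA5 the medians were -0.47 and -0.43. With spike-in scaling they were -0.03 and 0.01, against 0.24 for all genes well above background on all 4 arrays. The stalk proteins RPLP0, RPLP1 and RPLP2, which recruit elongation factors to the large subunit, were all lower. RPLP0 had levels of 8.77 and 7.29 in TR9-MeTA14 and of 9.36 and 8.78 in TR15-MeTA5, 2.79-fold and 1.5-fold lower with tetracycline. RPLP1 and RPLP2 had log2 changes of -1.04 and -1.05 in TR9-MeTA14 and of -0.54 and -0.49 in TR15-MeTA5. The second probe of RPLP0 had -2.05 in TR9-MeTA14 and -0.61 in TR15-MeTA5.

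Members known to bind MDM2 or to act on p53 (RPL5, RPL11, RPL23, RPS3, RPS7, RPS14 and RPS27A) had a median log2 change of -1.58 in TR9-MeTA14, with 6 of 7 at least 2-fold lower, and of -0.48 in TR15-MeTA5. Over all 77 members, 62 (80.5%) were at least 2-fold lower in TR9-MeTA14, and the medians were -1.36 and -0.45. RPL5, which with RPL11 and 5S rRNA forms the 5S ribonucleoprotein particle, had levels of 7.33 and 5.35 in TR9-MeTA14 and of 7.82 and 7.35 in TR15-MeTA5. RPL11 had levels of 7.81 and 6.15 in TR9-MeTA14 and of 7.84 and 7.31 in TR15-MeTA5. For RPL5 and RPL11 these are differences of 3.96-fold and 3.17-fold in TR9-MeTA14, with TR9-MeTA14 +Tet again the lowest array. RPS3, which also has a role in DNA repair, changed by -1.79 and -0.38, RPS14 by -1.55 and -0.48, and RPS27A, made as a fusion with ubiquitin, by -1.58 and -0.45. RPS7 (-1.04 and -0.40) and RPL23 (-0.96 and -0.49) had smaller differences. All of these signs in TR15-MeTA5 are subject to the scaling, as for the whole set.

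The 15 members listed as mutated in Diamond-Blackfan anaemia, an inherited failure of red cell production, had median log2 changes of -1.32 in TR9-MeTA14, with 11 at least 2-fold lower, and -0.48 in TR15-MeTA5. The whole set of 77 had 62 (80.5%) at least 2-fold lower in TR9-MeTA14 and medians of -1.36 and -0.45. RPS19, the most often mutated of them, had levels of 7.56 and 6.14 in TR9-MeTA14 and of 8.17 and 7.65 in TR15-MeTA5, 2.67-fold and 1.43-fold lower with tetracycline. RPS6, the ribosomal target of S6 kinases, had levels of 8.46 and 7.15 in TR9-MeTA14 and of 8.83 and 8.40 in TR15-MeTA5. It was 2.48-fold and 1.34-fold lower. RPL13A, often used as a reference gene in RT-PCR, had levels of 8.49 and 7.16 in TR9-MeTA14 and of 9.24 and 8.66 in TR15-MeTA5, 2.5-fold and 1.49-fold lower. RPL10, a late-joining large subunit protein at the peptidyl transferase centre, changed by -1.29 and -0.42, and RPL41, the smallest ribosomal protein, by -0.94 and -0.46.

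TR15-MeTA5 +Tet was compared with TR15-MeTA5 -Tet in the same way. The median log2 change of the 77 genes was -0.45, with a narrow range from -0.68 to -0.23 and an SD of 0.093, and none was 2-fold lower or higher. Among all 14337 genes compared, 2.21% were lower by 2-fold or more, 9.78% were higher by as much and 64.1% were lower by any amount, with a median log2 change of -0.16. Of the other 14260 genes, 19.7% lay below the member median. At 1.5-fold, 6 members (7.79%) were lower, a smaller share than the 11.3% of all genes. These values rest on the scaling. Before scaling, 69 of the 77 processed signals were higher with tetracycline and 8 were lower, with a median log2 ratio of 0.11. With spike-in probes the median was -0.02 with 42 genes lower, and with quantile normalization it was also -0.02, with 47 lower. The members lay below the median of all genes with spike-in scaling as with the 75th percentile, since both only shift an array, but 69 of 77 lay above it with quantile normalization. Quantile normalization gives every array the same set of values. Only 96 other genes were as bright as 90% of the members, so it can remove part of a shift that the members share. How much it removed was not tested.

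**Figure D4:**
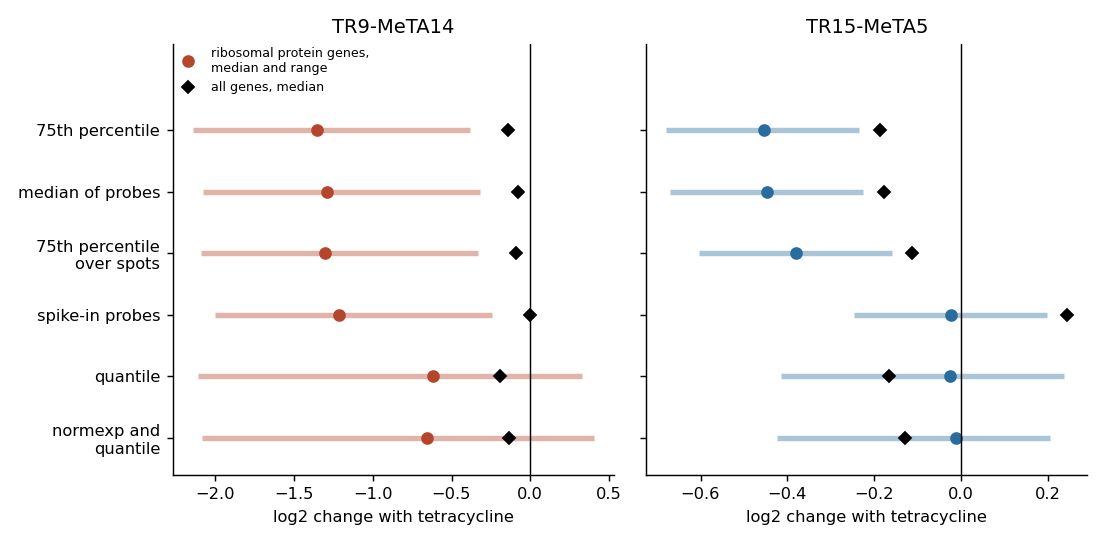
Median and range of the log2 change with tetracycline (x axis) of the 77 ribosomal protein genes, and the median of all genes well above background on all 4 arrays (diamond), under 6 ways of scaling the arrays (y axis) in TR9-MeTA14 and TR15-MeTA5. The member median in TR9-MeTA14 stays between -1.36 and -0.62, and in TR15-MeTA5 it lies between -0.45 and -0.01, close to 0 with spike-in, quantile or normexp scaling.

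Over both lines, all 77 members were lower with tetracycline on this scale, against 47.4% of all 13970 genes compared in both. In 76 genes the decrease was larger in TR9-MeTA14. This difference between the lines was not tested, since 4 arrays leave no degrees of freedom for it. Limma with cell line as a block, the lines standing as replicates, called none of the 77 at a Benjamini-Hochberg adjusted p below 0.05, and among 22808 probes 0.0132% were called lower. At an unadjusted p below 0.05, it called 10 members lower (13.0%), against 8.01% of all probes: RPSA, RPS12, RPS18, RPL22, RPL4, RPL3, RPLP0, RPL11, RPL12 and RPS23. These calls rest on the scaling and the block, since the count was 0 after quantile normalization or spike-in scaling and 1 after normexp or without the block. The adjusted p of the members by limma ranged from 0.236 to 0.484. RPSA had the smallest, 0.236 by limma, with a log2 change of -1.32 and an SE of 0.43. The fit has 1 residual degree of freedom, so a p that misses the threshold does not show that values did not differ.

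The untreated lines were compared to see whether they started from the same level. In TR15-MeTA5 -Tet 72 members had a higher scaled signal than in TR9-MeTA14 -Tet and 5 a lower one, with a median log2 difference of 0.57 (1.48-fold), while with spike-in scaling the median was -0.49 and all 77 were lower. Among all 13788 genes, 58.0% were higher by any amount, 8.17% were higher by 2-fold or more and 5.19% were lower by as much, with a median of 0.12. The members' range was -0.39 to 1.04. At the high end stood RPL15, with levels of 7.80 and 8.85 in TR9-MeTA14 -Tet and TR15-MeTA5 -Tet, RPL24 (7.41 and 8.41), RPL29 (7.35 and 8.34) and RPSA. RPL15 and RPL24 were the only members at least 2-fold higher. At 1.5-fold, 34 members (44.2%) were higher, against 20.5% of all genes. At the low end stood RPL22 with -0.39, RPL27A with -0.14, RPS27A with -0.10 and RPL7 with -0.03. The 96 other bright genes had a median of 0.60, close to that of the members. This comparison shares its arrays with both tetracycline responses.

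Other genes of protein synthesis were described from lists for comparison. Of 18 translation factors and other proteins whose mRNAs are known to carry a TOP tract, 17 were lower in TR9-MeTA14, all 17 at least 2-fold, with a median log2 change of -1.53. Among all genes compared, 52.9% were lower there and 15.1% at least 2-fold lower. In TR15-MeTA5 all 18 were lower, against 64.1% of all genes, with a median of -0.41. With spike-in scaling it was 0.02, against 0.24 for all genes well above background on all 4 arrays. EIF4B, a cofactor of the eIF4A helicase, had processed signals of 22912 and 3810 in TR9-MeTA14 and of 13130 and 14984 in TR15-MeTA5. Its log2 changes were -2.92 and -0.37. PABPC1, the cytoplasmic poly(A)-binding protein, changed by -2.34 and -0.48. EEF1D, a subunit of the elongation factor 1 exchange complex, was the one not lower in TR9-MeTA14, with 0.03 and -0.28. EIF3H, a subunit of initiation factor 3, had -1.19 and -0.34. The start-site run described above was present at 11 of the 14 annotated starts available for this list (78.6%), which do not cover all 18 genes. By limma at an unadjusted p below 0.05, 2 of the 18 were lower, against 8.01% of all probes, and none was after adjustment.

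Ribosome biogenesis genes, which make and process ribosomal RNA and assemble the subunits, showed a wider spread. In TR9-MeTA14, 54 of 59 were lower, 22 at least 2-fold, with a median log2 change of -0.82, and 2 were at least 2-fold higher. The shares over all genes compared were 52.9%, 15.1% and 16.8%. With quantile normalization their median was -0.86, lower than the -0.62 of the ribosomal protein genes, and with normexp it was -0.72 against -0.66. Which of both groups had the larger decrease in TR9-MeTA14 therefore rests on the scaling. In TR15-MeTA5, 53 of 58 were lower, against 64.1% of all genes, with a median of -0.24. With spike-in scaling it was 0.20, against 0.24 for all genes well above background on all 4 arrays. GNL3, the nucleolar GTPase nucleostemin, changed by -2.23 and -0.57 and POLR1E, a subunit of RNA polymerase I, by -2.03 and -0.51. BOP1, an assembly factor of the large subunit, was higher, with 1.37 and 0.54, and PWP2, a component of the small subunit processome, had 1.31 and 0.02. By limma 8 of these genes were lower and 1 higher at an unadjusted p below 0.05, and none after adjustment. Among all 14458 genes tested by their brightest probe, 1204 were lower and 1903 higher at that unadjusted p. The run was found at 11 of their 63 annotated starts (17.5%).

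Mitochondrial ribosomal proteins, which build the separate ribosome of mitochondria, differed less. Of 78 genes, 61 were lower in TR9-MeTA14, 4 of them at least 2-fold, with a median log2 change of -0.29. The shares over all genes compared were 52.9% and 15.1%. In TR15-MeTA5, 73 were lower, against 64.1% of all genes, with a median of -0.21. With spike-in scaling it was 0.22, against 0.24 for all genes well above background on all 4 arrays. MRPL3 changed by -1.37 and -0.42, MRPS12 by 1.00 and 0.34, and MRPL54 by 0.57 and -0.07. MRPS18A had processed signals of 2631 and 2763 in TR9-MeTA14 and of 2163 and 502 in TR15-MeTA5, with log2 changes of -0.26 and -2.67. It was the only gene of the list at least 2-fold lower in TR15-MeTA5, where 2.21% of all genes were. The run was found at 9 of the 87 annotated starts of this list (10.3%). Limma called 1 gene lower at an unadjusted p below 0.05, against 8.01% of all probes, and none after adjustment.

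**Figure D5:**
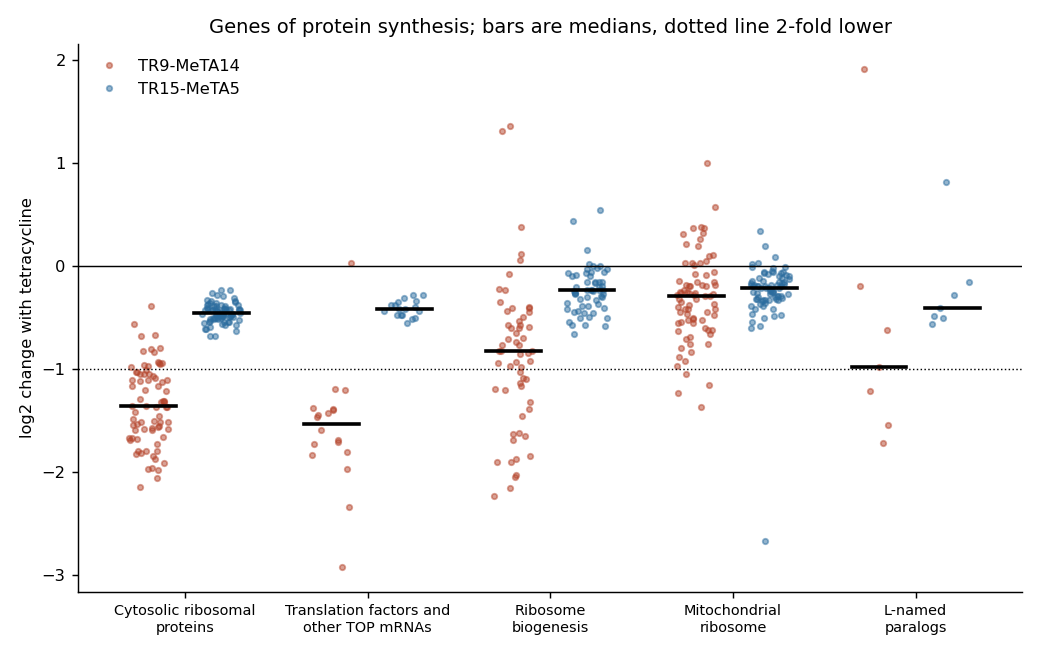
Log2 change with tetracycline (y axis) of single genes (points) of 5 groups of protein synthesis genes (x axis) in TR9-MeTA14 and TR15-MeTA5, scaled by the 75th percentile, with black bars at the medians and a dotted line at 2-fold lower. The TR9-MeTA14 medians are -1.36, -1.53, -0.82, -0.29 and -0.98 from left to right, and the TR15-MeTA5 medians, all below 0 here, lie at or above -0.02 with spike-in scaling. With spike-in scaling the TR15-MeTA5 median of all genes well above background on all 4 arrays is 0.24. With quantile normalization the TR9-MeTA14 medians are -0.62, -1.28, -0.86, -0.30 and -0.69 in the same order.

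FAU, the ubiquitin-like fusion precursor of RPS30, lies outside the naming rule and changed by -0.73 in TR9-MeTA14 and -0.54 in TR15-MeTA5. With quantile normalization its change in TR9-MeTA14 was close to 0, at 0.01. Of the paralogs whose name adds L or L1 to that of a member, 7 of 8 could be compared and 6 were lower in both lines, against 47.4% of all genes. RPL22L1, which can take the place of RPL22 in the ribosome, changed by -1.72 and -0.50, so that it was lower together with RPL22. RPL10L, a retrogene of RPL10 known from the testis, had -1.54 and -0.57. RPL36AL had -1.21 and -0.49, RPL7L1 -0.98 and -0.41, RPS27L -0.62 and -0.28, and RPL26L1 -0.19 and -0.16.

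RPL3L, the striated muscle form of RPL3, went the other way. Its processed signals were 66.4 and 316 in TR9-MeTA14 and 51.0 and 133 in TR15-MeTA5, dim but well above background throughout. The log2 changes were 1.92 and 0.82, higher with tetracycline in both lines. RPL3 itself had -1.79 and -0.55. By limma RPL3L had an adjusted p of 0.207, the log2 change over both lines being 1.37 with an SE of 0.39.

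Markers of the LNCaP lineage moved in the same direction as the ribosomal protein genes. In TR9-MeTA14, 9 of 10 were lower, against 52.9% of all genes, with a median log2 change of -1.80. KLK2 was at -4.0 and TMPRSS2 at -3.03, and KRT8 was at 0.24. In TR15-MeTA5 all 10 were lower, against 64.1% of all genes, with a median of -0.62. With spike-in scaling it was -0.19, against 0.24 for all genes well above background on all 4 arrays. The part of these markers in the result was not tested. In bulk RNA, fewer cells expressing a gene and less RNA per cell cannot be told apart.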

How the data were processed

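Total RNA of 4 samples was labelled with Cy3 and hybridised to Agilent 4×44K whole genome arrays. Per the file headers the authors extracted the images with Agilent Feature Extraction 10.7.3.1 (the labels give 9.5.1) and deposited the processed signal, an intensity after background subtraction and detrending that is not normalized between arrays. A normalization by the authors is not given in the sources used here.

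From these deposited intensity values, outlier spots (255 to 344 per array) were left out, log2 signals were averaged over the spots of a probe, and the 75th percentile over non-control probes was subtracted from each array. A gene entered a comparison if the brighter of both arrays measured its brightest probe well above background. Where it was not on the dimmer array, its fold was a bound against the lowest signal well above background there. All 77 members were measured on both arrays of each comparison. RefSeq accessions paired 25422 probes (74.5%) with 1 gene through a table on GRCh38.p14. The design was annotated on hg19, so no probe coordinates are given. Calls used 2-fold. Limma 3.58.1 in R 4.3.3 was fitted to probes measured above background on 2 or more arrays. The fit blocked on cell line, let the prior variance follow intensity and used Benjamini-Hochberg adjusted p-values over all probes, after the script had been tested on simulated data. Python 3.11.15, numpy 2.4.6 and pandas 2.3.3 were used for the rest.

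Results of some single genes are not reported here and 1 member is not drawn in the plot of single changes. The members and lists were chosen with earlier results of these data known. Genes named are the extremes by the mean over both lines, by the difference between lines, by 2-fold calls (at most 10) and by the untreated difference, members with known roles, and the extremes of each list. RPL3, RPL12, RPS18, RPS26 and other probes of RPL13, RPS2, RPLP0 and RPS29 were added after their values had been seen. Alternatives were other scalings (quantile, normexp with an offset of 50 on median pixel signals, spike-in probes, median, percentile over spots), all spots kept, probe choice, filters, cut-offs, no block and no trend.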

Additional observations from a re-analysis of the deposited data

Results flagged for a closer look

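The dimmest probe of RPS29, a small subunit protein, went in opposite directions in the lines. This probe is annotated to a second RefSeq transcript of the gene. Its processed signals were 1126 and 304 in TR9-MeTA14 and 689 and 1253 in TR15-MeTA5, without and with tetracycline. The log2 changes were -2.22 and 0.30, a difference of -2.52 between the lines. Among the member probes that every array measured well above background, it alone was higher with tetracycline in TR15-MeTA5 on the 75th percentile scale. The other 3 probes of RPS29, annotated to the first transcript, had log2 changes between -1.85 and -1.59 in TR9-MeTA14 and between -0.51 and -0.32 in TR15-MeTA5. With 1 array per condition, the difference was not tested.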

How the results depend on the processing

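The median decrease in TR9-MeTA14 kept its direction under every setting, and its size changed most with quantile steps. With quantile normalization the median was -0.62, 25 members were 2-fold lower and the members lay -0.48 from all genes (against -1.36, 62 and -1.29), and with normexp these were -0.66, 26 and -0.58. Spike-in scaling gave a median of -1.22. The dimmest measured probe of each gene, added after seeing the data, gave -1.48 and -1.42 from all genes. In TR15-MeTA5 the median of -0.45 became -0.025 after quantile normalization, -0.012 after normexp and -0.022 after scaling by spike-in probes. The distance from all genes of -0.29 became 0.12 after quantile normalization and 0.099 after normexp. For the untreated lines, the median of 0.57 and the distance of 0.45 became 0.023 and 0.012 after quantile normalization or 0.0501 and 0.048 after normexp. Spike-in scaling gave these lines a median of -0.49 with 6 members 2-fold lower, against a median of -0.93 for all genes well above background on all 4 arrays. The 2 members 2-fold higher there became 0 after quantile normalization, normexp, spike-in scaling or the percentile over spots and 1 with the mean over probes. At 1.5-fold, 6 members were lower in TR15-MeTA5 (11.3% of all genes were) and 34 higher between the lines (20.5% of all genes). At 3-fold, 21 were lower in TR9-MeTA14 (6.67% of all genes) and 0 higher between the lines. Limma's 10 members at an unadjusted p below 0.05 became 0 after quantile normalization, 1 after normexp, 1 without the block and 0 with spike-in scaling (added). After adjustment there were 0 under each of these settings, the smallest adjusted p by limma being 0.168 without a filter. Quantile steps give every array the same set of values, so they can remove part of a shift that the bright members share. How much they removed, and the cause of these shifts, was not tested. Of 70 single-gene values, 66 moved by more than the replicate-spot SD after quantile normalization, 66 after normexp, 70 after spike-in scaling, 30 with the dimmest probe and 15 with the mean over probes. No replicate could be left out, with 1 array per condition.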
